A study of Mus musculus with 3 samples.

Results

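The 9 genes described here cover the receptor for thyroid stimulating hormone and the handling of thyroid hormone. They are Tshr, the gene of the thyroid stimulating hormone (TSH) receptor, Tshb, the gene of the beta subunit of TSH, the nuclear receptor genes Thra and Thrb, the deiodinase genes Dio1, Dio2 and Dio3, the transporter gene Slc16a10 and the growth factor receptor gene Igf1r. They were chosen by name from a table of 54532 genes, and all 9 were found in it. Messenger RNA had been measured in RAW264.7, a mouse macrophage line of wild type genotype. The cytokine RANKL turns these macrophages into osteoclasts, which break down bone. Cells in all 3 libraries had received RANKL for 3 days. In 2 libraries 10 mU/mL of TSH followed, for 2 h in 1 of them and for 24 h in the other, and the third library was of RANKL alone (0 h). The table names the TSH libraries T1 and T2 and does not tie either name to a time, so nothing is read from the hours here. Each condition held 1 library, so no difference has a replicate check and no p-value is given. The cells are a line, and the labels do not say whether the libraries came from separate cultures or were collected on the same day.

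TSH is made by thyrotroph cells of the pituitary from a beta subunit and an alpha subunit that it shares with the gonadotropins. It acts on the thyroid through a receptor coupled to G proteins, which raises cyclic AMP and with it the synthesis of thyroid hormone. Other cells take that hormone up through membrane transporters, convert it with deiodinases and read it with the nuclear receptors TRα and TRβ. Tshr has also been described in bone cells, and mice that lack it lose bone.

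The reads assigned to genes summed to 16809034 in T1, 17390744 in T2 and 16156926 with RANKL alone. Most osteoclast markers were abundant in every library. Ctsk, encoding cathepsin K, stood at 983 FPKM in T1, 979.9 FPKM in T2 and 1337 FPKM with RANKL alone, where FPKM is a read count scaled to gene length and library depth. Acp5, encoding tartrate-resistant acid phosphatase, stood at 857, 822 and 972 FPKM in T1, T2 and RANKL alone. A gene is called measured here when its mean over the libraries reaches 1 FPKM, as 7 of 8 osteoclast markers did. Calcr, the calcitonin receptor gene, did not, at 0.412 FPKM in T1, 0.321 FPKM in T2 and 0.697 FPKM with RANKL alone. The 8 markers summed to 2350.3 FPKM in T1, 2276 FPKM in T2 and 2835 FPKM with RANKL alone, and among the 7 measured the largest log2 changes were those of Ctsk, Oscar, Acp5 and Mmp9. None of 10 fibroblast and osteoblast markers was measured, and their summed level was 0.489 FPKM in T1, 0.364 FPKM in T2 and 0.441 FPKM with RANKL alone. Col1a2, Col3a1 and Bglap had 0 reads throughout. The rest had reads, most of all Runx2, with 32 in T1, 15 in T2 and 22 with RANKL alone. Of the 6 thyrotroph genes 0 were measured. Of the 13 genes of hormone synthesis in the thyroid only Hhex was, at 8.05 FPKM in T1, 8.66 FPKM in T2 and 9.12 FPKM with RANKL alone. It encodes a transcription factor that blood cells use as well, and the defining thyroid genes Pax8, Nkx2-1 and Foxe1 had 0 reads. Of the 13 genes, 7 had 0 reads throughout and 5 had 1 to 30. Tg was among the latter, with 3 in T1, 1 in T2 and 1 with RANKL alone.

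Among the 9 genes, 2 were measured (Slc16a10 and Thra), 3 had between 1 and 5 reads over all libraries (Dio2, Tshr and Tshb), and 4 were listed at 0 in every library (Thrb, Dio1, Dio3 and Igf1r). For comparison, 43.1% of the 22046 protein coding genes were measured, 10.0% had 1 to 5 reads, and 34.5% were listed at 0 throughout. A gene listed at 0 is not shown to be silent. Med10, Exosc6 and Mrpl53, genes of general cell machinery that were picked for this point after their values had been seen, also had 0 reads in all 3 libraries. Each of those overlaps another gene in the table, as do Slc16a10, Thra, Thrb, Tshr, Tshb and Dio2, whereas Igf1r, Dio1 and Dio3 overlap none. Whether overlap bears on a count of 0 was not tested.

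**Figure D1:**
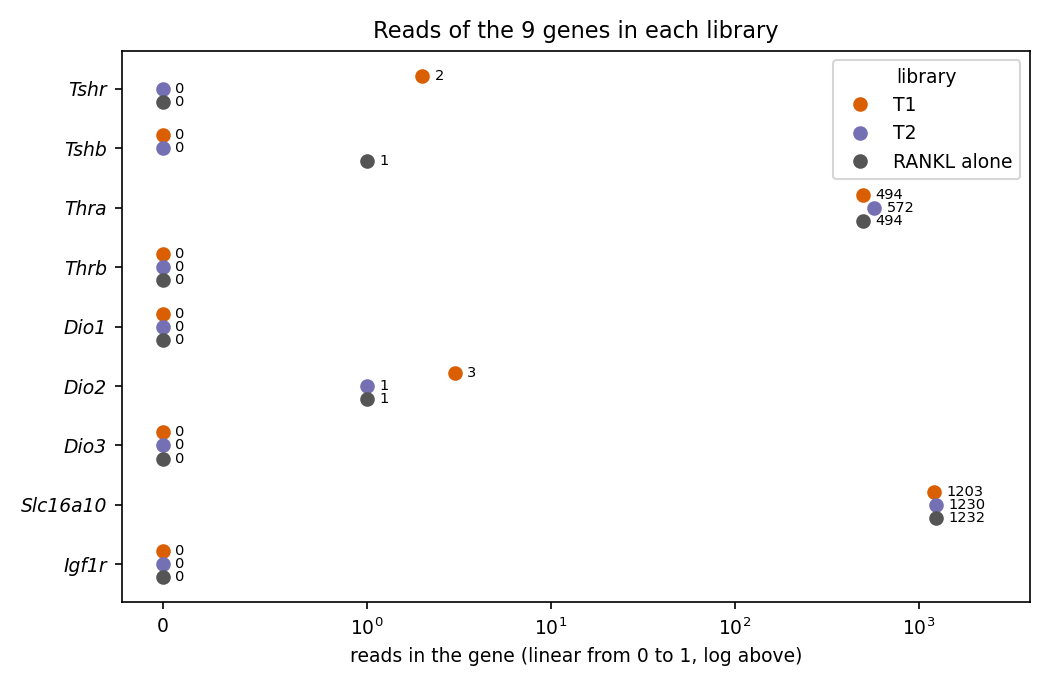
Reads counted in each of the 9 genes (rows), with 1 point per library and the number of reads beside it, on an axis that is linear from 0 to 1 and logarithmic above. Slc16a10 had 1203 to 1232 reads per library and Thra 494 to 572, while every other gene had at most 3.

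Tshr encodes the receptor for the hormone that was added. The gene (ENSMUSG00000020963) lies on the plus strand of chromosome 12, from 91384563 to 91549808 in GRCm38. It had 2 reads in T1, 0 in T2 and 0 with RANKL alone, out of 50356704 reads in the 3 libraries. The reads in T1 correspond to 0.0198 FPKM, with a 95% Poisson interval from 0.00240 to 0.0717 FPKM. A limit of 3 reads was set for a count of 0, which is 0.0285 FPKM in T2 and 0.0309 FPKM with RANKL alone. The 95% Poisson interval used for T1 reaches somewhat further there, to 0.0350 FPKM in T2 and 0.0380 FPKM with RANKL alone. The libraries could therefore not be ranked for Tshr at this depth. Intervals and limits of this kind cover counting error only, and in RNA from a whole culture fewer cells with a transcript cannot be told apart from less of it per cell. Per length, Insr, the insulin receptor gene, stood 97.3-fold above Tshr in T1 (95% counting interval 26.8 to 806). No other gene shared 100 bases with Tshr at 95% identity, and the pseudogene Gm18827, which lies within it, had 0 reads.

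Relatives of Tshr were below the limit of 1 FPKM too. The receptor genes for follicle stimulating hormone and luteinizing hormone, Fshr and Lhcgr, were listed at 0, as were Lgr5 and Lgr6 of the related receptor family. Lgr4, a receptor for R-spondins, had 32 reads in T1, 27 in T2 and 29 with RANKL alone, at 0.324, 0.262 and 0.306 FPKM. In all, 0 of 12 genes of glycoprotein hormones and their receptors were measured and 8 of them had 0 reads throughout.

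Tshb (ENSMUSG00000027857, chromosome 3, 102775465 to 102782718, minus strand) had 0 reads in T1, 0 in T2 and 1 with RANKL alone. That read corresponds to 0.0136 FPKM, with an interval from 0.000345 to 0.0758 FPKM. Cga, the gene of the alpha subunit that TSH needs, was listed at 0. Tshb lies within Tspan2, a tetraspanin gene on the opposite strand, which itself had 0 reads in T1, 1 in T2 and 0 with RANKL alone. Bone marrow macrophages have been described to make a shorter form of the TSH beta subunit, and the gene level table used here does not separate forms.

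The nuclear receptors bind thyroid hormone in the nucleus and switch target genes as partners of RXR. Thra (ENSMUSG00000058756, chromosome 11, 98740638 to 98769006, plus strand), the gene of TRα, had 494 reads in T1, 572 in T2 and 494 with RANKL alone. Its level was 6.38 FPKM in T1 (95% Poisson interval 5.83 to 6.97), 7.07 FPKM in T2 (6.51 to 7.68) and 6.64 FPKM with RANKL alone (6.07 to 7.25). T2 was therefore highest and T1 lowest, and all 3 intervals overlapped. Between 55.5% and 58.5% of measured genes stood higher than Thra in each library.

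The ratio of FPKM for Thra was 0.962 for T1 over RANKL alone (95% counting interval 0.847 to 1.09) and 1.07 for T2 over RANKL alone (0.943 to 1.204). It was 1.11 for T2 over T1 (0.981 to 1.25). A difference is called beyond counting error here when this interval leaves out 1, which compares the libraries and not the conditions, and Thra passed in none of the comparisons. With libraries rescaled to the same total FPKM, Thra was higher in T2 than in T1, at a ratio of 1.13 (1.003 to 1.28). Thrb (ENSMUSG00000021779, chromosome 14, 17660261 to 18038090, plus strand), the gene of TRβ, was listed at 0 in each library, as were the 3 annotated genes Gm48320, Gm24140 and Gm48321 that overlap it.

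Thra and Nr1d1, the gene of the clock repressor REV-ERBα, are transcribed toward each other and overlap at their ends. In GENCODE release M21 they share 263 exon bases between 98768157 and 98768419 on chromosome 11, which is 5.70% of the exon length of Thra and 8.55% of that of Nr1d1. All 263 lie in coding exons of Thra, and 197 also lie in coding exons of Nr1d1. How the authors counted reads in that stretch, and whether by strand, is not given in the sources used here, so reads of both genes there cannot be told apart. Nr1d1 stood at 10.6 FPKM in T1, 11.2 FPKM in T2 and 9.59 FPKM with RANKL alone. It was higher in T2 than with RANKL alone beyond counting error, at a ratio of 1.17 (1.03 to 1.32), and its ratio for T1 was 1.11 (0.979 to 1.26). Whether reads of Nr1d1 add to the value of Thra in T2 was not tested.

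RXR proteins form the other part of the receptor pair. Rxrb stood at 40.4 FPKM in T1, 40.4 FPKM in T2 and 39.1 FPKM with RANKL alone, and per length it was 6.33-fold, 5.71-fold and 5.89-fold above Thra in the same libraries. Rxra was low, at 1.60, 1.57 and 1.80 FPKM in T1, T2 and RANKL alone, and Rxrg was listed at 0. Neither Rxrb nor Rxra differed from RANKL alone beyond counting error.

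**Figure D2:**
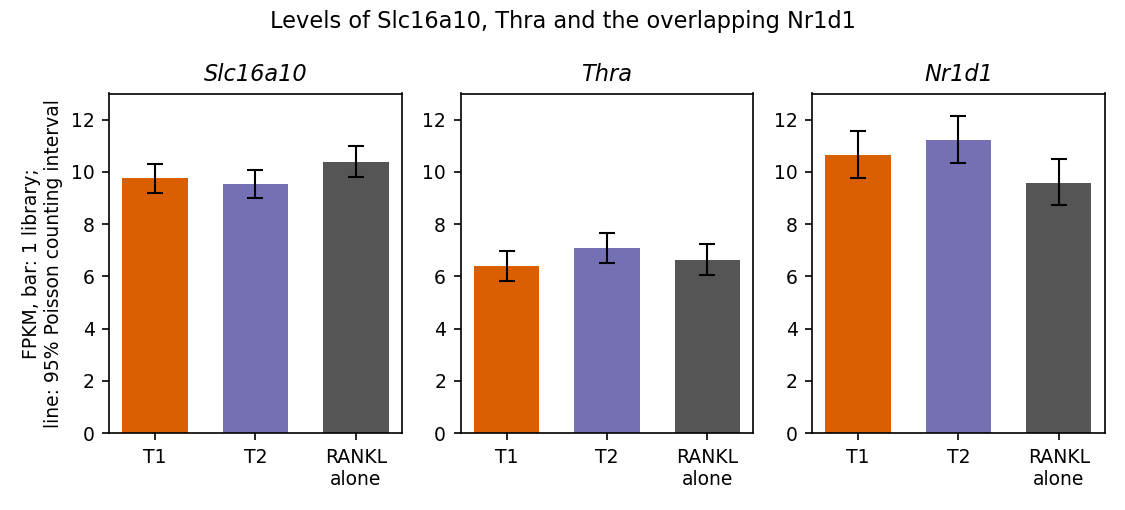
FPKM of Slc16a10, Thra and the overlapping Nr1d1 in T1, T2 and RANKL alone, with bars from 0 and lines for the 95% Poisson counting interval of each single library. Within each gene the intervals of all libraries overlap, and for Nr1d1 T2 stands at 11.2 FPKM against 9.59 FPKM with RANKL alone.

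Deiodinases are selenoenzymes: the product of Dio2 makes the active hormone T3 from T4, that of Dio3 inactivates both, and that of Dio1 can do either. Dio2 (ENSMUSG00000007682, chromosome 12, 90724552 to 90738438, minus strand) had 3 reads in T1, 1 in T2 and 1 with RANKL alone. These are 0.0308 FPKM (95% Poisson interval 0.00634 to 0.0899), 0.00981 FPKM (0.000248 to 0.0547) and 0.0107 FPKM (0.000270 to 0.0594). The ratio of T1 to RANKL alone was 2.89 with a counting interval from 0.232 to 151, so no difference was detectable at this depth. The start of Dio2 also overlaps Gm26512, a long noncoding RNA on the opposite strand with 1 read, in T2. Dio1 (ENSMUSG00000034785, chromosome 4, 107291465 to 107307169, minus strand) and Dio3 (ENSMUSG00000075707, chromosome 12, 110279068 to 110281097, plus strand) were listed at 0.

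Dio2 is shown with its promoter because cyclic AMP, the messenger of the TSH receptor, is known to induce it. The window runs from 250 bases before to 50 bases after the RefSeq start, at chr12:90738989-90739288 of GRCm38.p6 on the minus strand. That start lies 600 bases upstream of the first base of Dio2 in the deposited table, so the window lies wholly outside the stretch whose reads were counted. Capitals mark the cyclic AMP response element TGACGTCA, 95 to 88 bases before the start, and TATAAA, 30 to 25 bases before it.
Dio2: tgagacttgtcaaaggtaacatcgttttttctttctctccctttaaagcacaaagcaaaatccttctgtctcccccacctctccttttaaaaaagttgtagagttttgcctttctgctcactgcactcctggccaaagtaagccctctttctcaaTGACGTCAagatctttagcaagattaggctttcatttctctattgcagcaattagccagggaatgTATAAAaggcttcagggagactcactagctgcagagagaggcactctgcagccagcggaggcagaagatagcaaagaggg

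Searched on both strands, TGACGTCA occurred in 1.79% of 32851 RefSeq promoter windows of the same length, and TATAAA in 13.6%. RefSeq windows were at hand for 7 of the 9 genes, and Dio2 alone of these held TGACGTCA. Its core TGACG, which lies within it, was in 20.8% of all windows and in those of Dio2 and Thrb. TATAAA was found in the windows of Tshb, Dio3 and 1 of the 2 windows of Thrb as well. The direct repeat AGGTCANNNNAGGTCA, to which thyroid hormone receptors bind, was in none of them and in 0.0152% of all windows. Its repeated unit AGGTCA was in 16.3% of all windows and in those of Igf1r and Thrb. A match describes the letters of the window only.

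Genes of enzymes that turn over the DIO2 protein were measured well. Wsb1, of the ubiquitin ligase that recognises it, stood at 28.4 FPKM in T1, 30.4 FPKM in T2 and 27.4 FPKM with RANKL alone, and was higher in T2 beyond counting error at a ratio of 1.11 (1.04 to 1.18). Usp20, a deubiquitinase that spares it, stood at 9.42, 9.01 and 10.0 FPKM in T1, T2 and RANKL alone, with a ratio of 0.898 (0.834 to 0.966) for T2. The conjugating enzyme gene Ube2g2 was lower in T2 at 0.928 (0.868 to 0.993), a call that was lost with depth as the sum of reads, at 0.937 (0.876 to 1.002). The ligase gene March6 and the deubiquitinase gene Usp33 did not differ beyond counting error in either TSH library. Of the 6 genes for making selenoproteins, all were measured and Secisbp2 was the 1 that passed. Its product binds the element that makes a stop codon read as selenocysteine. It was higher at 1.22 (1.099 to 1.36) in T1 and 1.13 (1.02 to 1.26) in T2, each over RANKL alone. Beside these lists, 10.8% of all measured genes were higher and 12.2% lower in T1, and 10.2% and 13.2% in T2. Trnau1ap, Sepsecs and Sephs2 did not pass, but Sephs2, of selenophosphate synthesis, was higher in T2 with libraries rescaled to the same total FPKM, at 1.06 (1.0004 to 1.12), and with depth as the sum of reads, at 1.07 (1.005 to 1.13).

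Slc16a10 (ENSMUSG00000019838, chromosome 10, 40033532 to 40142258, minus strand) encodes MCT10, which carries thyroid hormone and aromatic amino acids across the cell membrane. It had the most reads of the 9 genes, with 1203 in T1, 1230 in T2 and 1232 with RANKL alone. Scaled to depth and length these were 9.75 FPKM in T1 (95% Poisson interval 9.21 to 10.3), 9.54 FPKM in T2 (9.02 to 10.1) and 10.4 FPKM with RANKL alone (9.81 to 11.0). RANKL alone was thus highest and T2 lowest, and the intervals of all libraries overlapped. Between 43.3% and 46.3% of measured genes stood higher in each library.

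The ratio for Slc16a10 was 0.919 (95% counting interval 0.848 to 0.995) for T2 over RANKL alone, just beyond counting error. For T1 over RANKL alone it was 0.939 (0.867 to 1.02), and for T2 over T1 it was 0.978 (0.903 to 1.06). The call in T2 was lost with libraries rescaled to the same total FPKM, at 0.924 (0.853 to 1.0003), and with depth taken as the sum of reads, at 0.928 (0.856 to 1.005). In the first of these settings T1 passed instead, at 0.923 (0.851 to 0.9996), and T2 over T1 turned to 1.001. Osteoclast markers were lower as well, 4 of 7 in T1 with 1 higher and 7 of 7 in T2. Of all measured genes, 12.2% were lower in T1 and 13.2% in T2. The part of the markers in the value of Slc16a10 was not tested. The small RNA gene Gm25613 within Slc16a10 had 0 reads.

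Counted over the measured genes among the 9, 1 of 2 was lower beyond counting error in T2 against RANKL alone and 0 of 2 higher. Of all 11069 measured genes, 13.2% were lower and 10.2% higher in that comparison. In T1 against RANKL alone 0 of 2 passed either way, where 12.2% of all genes were lower and 10.8% higher, and in T2 against T1 0 of 2 passed, where 10.1% were lower and 7.93% higher. A change of at least 2-fold on the log2(FPKM + 1) scale was reached by neither gene. Among all measured genes 1.04% reached it in T1 and 0.768% in T2, each against RANKL alone, and 0.831% in T2 against T1. With 2 genes, such counts do not set the group apart. The shares over all measured genes apply beside the counts of each gene list as well.

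On the same scale Slc16a10 was at -0.08 in T1 and -0.11 in T2. Over the 3 libraries the protein coding genes nearest to it in both values, with at least 300 reads, were Pced1b (-0.08 and -0.11), Vdac1 (-0.08 and -0.11) and Fryl (-0.08 and -0.11). Among 8971 genes searched 2218 lay within 0.1 of it, so this likeness is common.

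The other carriers were read beside Slc16a10. Slc7a8, the gene of the amino acid transporter LAT2, stood at 4.93 FPKM in T1, 4.56 FPKM in T2 and 4.92 FPKM with RANKL alone. Per length Slc16a10 stood 1.98-fold above it in T1 (1.77 to 2.22), 2.09-fold in T2 (1.87 to 2.35) and 2.11-fold with RANKL alone (1.88 to 2.37). Slco4a1, an organic anion transporter gene, was highest of the list at 80.7 FPKM in T1, 83.3 FPKM in T2 and 80.3 FPKM with RANKL alone. Slc7a5 and Slc3a2 encode the light and heavy chains of LAT1, an amino acid exchanger that also carries thyroid hormone. Slc7a5 was at 44.9, 45.8 and 42.7 FPKM in T1, T2 and RANKL alone, and Slc3a2 at 44.5, 51.4 and 48.6 FPKM.

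Of the 14 transporters and carriers 5 were measured, and 6 had 0 reads throughout, among them Slco2b1 and Crym, the gene of a protein that binds T3 in the cytosol. In T2, 3 of the 5 were higher (Slco4a1 at 1.04, Slc7a5 at 1.07 and Slc3a2 at 1.06) and 1 lower (Slc16a10). In T1, 0 were higher and Slc3a2 was lower, at 0.916 (0.868 to 0.966). Of all measured genes, 10.2% were higher and 13.2% lower in T2, and 10.8% and 12.2% in T1. The medians of the 5 log2 changes were 0.00 in T1 and 0.05 in T2, against -0.0014 and -0.0018 over all measured genes.

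**Figure D3:**
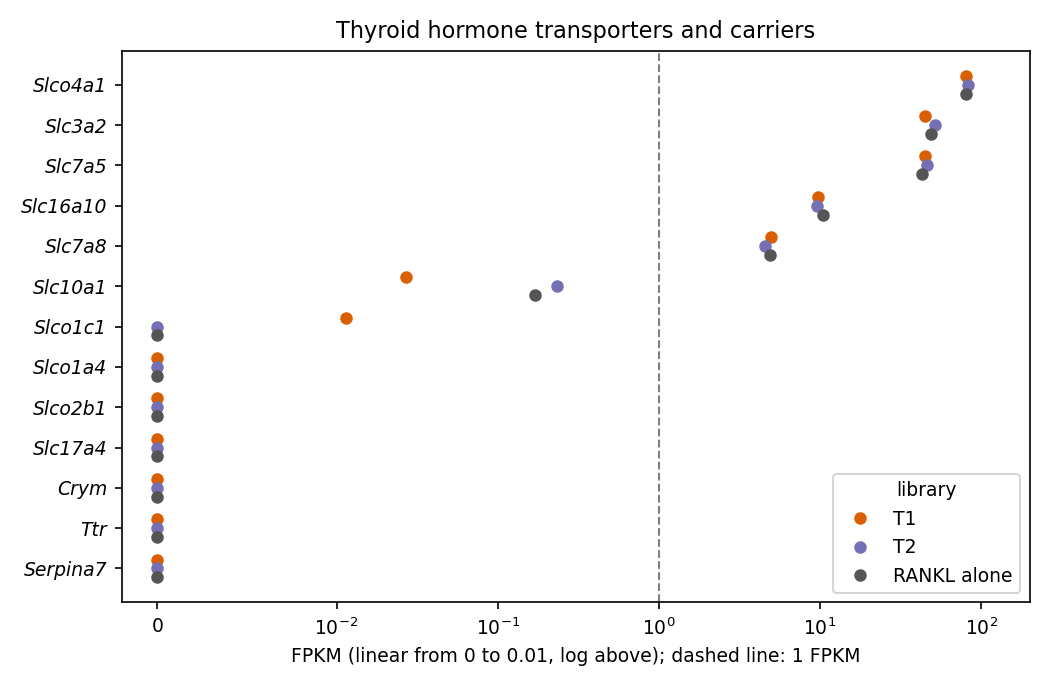
FPKM of 13 transporters and carriers of thyroid hormone in T1, T2 and RANKL alone, 1 point per library, on an axis linear below 0.01 and logarithmic above. The 5 genes right of the dashed line at 1 FPKM keep their order from Slco4a1 at 80.3 to 83.3 FPKM down to Slc7a8, apart from Slc3a2 and Slc7a5, which stand close together in T1 at 44.5 and 44.9 FPKM.

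Igf1r (ENSMUSG00000005533, chromosome 7, 67952827 to 68233668, plus strand) encodes the receptor for IGF1, which signals together with the TSH receptor in some fibroblasts. It was listed at 0 in all libraries although it is the longest of the 9 genes, at 16791 bases of exon. Its promoter window is set beside that of Slc16a10 because both are rich in CpG, the dinucleotide that marks many active promoters, while their reads lie at opposite ends of the 9 genes. Capitals mark CpG. The windows lie at chr10:40142205-40142504 on the minus strand and at chr7:67952007-67952306 on the plus strand of GRCm38.p6.
Slc16a10: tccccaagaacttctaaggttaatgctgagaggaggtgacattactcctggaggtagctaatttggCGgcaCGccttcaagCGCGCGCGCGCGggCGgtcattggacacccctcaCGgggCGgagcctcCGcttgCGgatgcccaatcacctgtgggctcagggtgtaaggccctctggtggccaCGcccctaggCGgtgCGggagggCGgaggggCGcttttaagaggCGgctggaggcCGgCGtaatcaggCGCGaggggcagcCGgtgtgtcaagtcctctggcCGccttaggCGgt
Igf1r: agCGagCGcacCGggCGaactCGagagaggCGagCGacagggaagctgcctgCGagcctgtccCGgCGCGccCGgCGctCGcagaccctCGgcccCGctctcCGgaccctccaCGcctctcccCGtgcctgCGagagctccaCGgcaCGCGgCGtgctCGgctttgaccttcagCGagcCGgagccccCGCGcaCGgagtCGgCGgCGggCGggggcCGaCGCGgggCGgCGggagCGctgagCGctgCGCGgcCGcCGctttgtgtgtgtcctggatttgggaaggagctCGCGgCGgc

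The RefSeq start of Igf1r lies 570 bases upstream of the gene in the deposited table, so its window is outside the counted gene, while that of Slc16a10 lies 4 bases inside its gene. Of Thrb, the RefSeq starts lie 699 and 321383 bases inside the gene, and of Dio3, 162 bases inside. The window of Slc16a10 holds 26 CpG and that of Igf1r 48, against a median of 7 over all windows. Fewer CpG than in Igf1r were found in 98.8% of windows. Among 301 protein coding genes with at least as many CpG as Igf1r, 12.3% had 0 reads in all libraries, and among 4222 with at least as many as Slc16a10, 10.2% did. Dio3 and Thrb, with 25 and up to 37 CpG, were listed at 0 too. At the other end, 75.8% of 3650 genes with no more CpG than the 3 of Dio1 and Dio2 had 0 reads.

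Around Igf1r the pathway was partly present. Insr was at 1.93 FPKM in T1, 1.95 FPKM in T2 and 1.92 FPKM with RANKL alone, and Igf2r, which takes IGF2 and lysosomal enzymes into the cell, at 55.0, 53.9 and 58.8 FPKM. Igf2r was lower beyond counting error in both, at 0.934 (0.907 to 0.963) in T1 and 0.916 (0.889 to 0.944) in T2. Pik3r1, a regulatory subunit of PI3 kinase, was lower in T2 at 0.908 (0.826 to 0.998), while its ratio in T1 was 1.07 (0.974 to 1.17). That call was lost with libraries rescaled to the same total FPKM, at 0.912 (0.830 to 1.003), and with depth as the sum of reads, at 0.916 (0.833 to 1.008). The arrestin genes Arrb1 and Arrb2 and the adaptor gene Grb2 did not differ beyond counting error. The receptor substrate genes Irs1 and Irs2 were listed at 0, and each overlaps another gene in the table that had 0 reads too. Of these 18 genes 8 were measured, with 0 higher and 1 lower in T1 and 0 higher and 2 lower in T2. Over all measured genes, 10.8% were higher and 12.2% lower in T1, and 10.2% and 13.2% in T2.

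Genes of the proteins that work with the nuclear receptors were all measured. Of 12 corepressor and coactivator genes, 0 were higher and 2 lower in T1, the coactivator genes Ep300 at 0.923 (0.882 to 0.966) and Med1 at 0.918 (0.856 to 0.984). In T2, Tbl1xr1 at 1.13 (1.06 to 1.204) and Crebbp at 1.11 (1.04 to 1.19) were higher and Tbl1x at 0.924 (0.867 to 0.985) was lower. The corepressor gene Ncor1 passed in neither. For comparison, 10.8% of all measured genes were higher and 12.2% lower in T1, and 10.2% and 13.2% in T2.

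Genes that thyroid hormone is known to induce in other tissues moved little. Klf9, a transcription factor gene, was at 6.78 FPKM in T1, 8.18 FPKM in T2 and 7.56 FPKM with RANKL alone, and only T2 over T1 passed, at 1.21 (1.05 to 1.39). Ucp2, a mitochondrial carrier gene, was lower in T2, at 0.914 (0.897 to 0.931). Slc2a1, the glucose transporter gene, was lower in T1, at 0.914 (0.853 to 0.979). Cpt1a, of fatty acid oxidation, passed against RANKL alone in neither. Thrsp and Hr, which respond in liver and in brain and skin, had at most 1 read in any library. Of the 10 genes 6 were measured, with 0 higher in either TSH library against RANKL alone, 1 lower in T1 and 2 lower in T2. Among all measured genes, 10.8% were higher and 12.2% lower in T1, and 10.2% and 13.2% in T2.

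Integrin αVβ3, which osteoclasts use to hold on to bone, is also a binding site for T4 at the cell surface. Itgav stood at 94.99 FPKM in T1, 95.7 FPKM in T2 and 109.9 FPKM with RANKL alone, and Itgb3 at 11.3, 11.0 and 13.7 FPKM. Both were lower beyond counting error, Itgav at 0.865 (0.847 to 0.883) in T1 and 0.872 (0.854 to 0.890) in T2, and Itgb3 at 0.829 (0.765 to 0.899) and 0.808 (0.745 to 0.875). For comparison, 12.2% of all measured genes were lower in T1 and 13.2% in T2. The part of the lower osteoclast markers in these values was not tested.

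Over all pathway genes apart from the 9, 46 were measured. Against RANKL alone, 1 was higher (2.17%), 7 were lower (15.2%) and 38 did not pass in T1. Of all measured genes 10.8% were higher and 12.2% lower there. In T2, 7 were higher (15.2%), 9 lower (19.6%) and 30 did not pass, against 10.2% and 13.2% of all measured genes. In T2 against T1, 5 were higher (10.9%) and 3 lower (6.52%), against 7.93% and 10.1% of all measured genes. The split moved with the scaling. With libraries rescaled to the same total FPKM it was 1 higher and 9 lower in T1 against RANKL alone. In that setting it was 8 and 8 in T2 against RANKL alone and 10 and 2 in T2 against T1. With depth as the sum of reads it was 8 and 6 in T2 against RANKL alone and 7 and 2 in T2 against T1. The shares of all measured genes were taken in the reported scaling only, so the rescaled counts have no such share beside them. The medians of the log2 changes were -0.02 in T1 and -0.0033 in T2, and none of the 46 reached 2-fold. Both TSH comparisons share the library of RANKL alone, so their values are not independent.

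**Figure D4:**
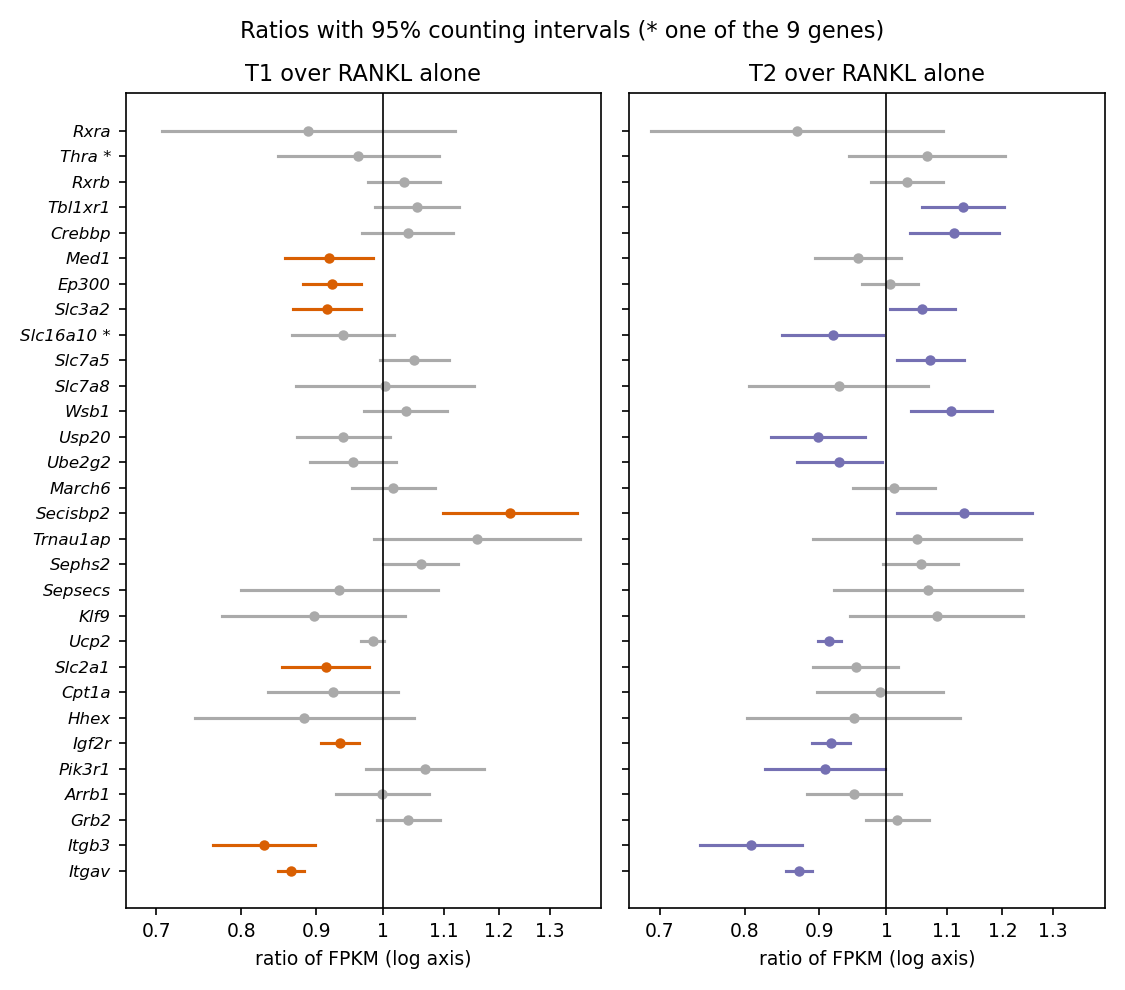
Ratios of FPKM on a log axis for 30 measured genes of the lists, T1 over RANKL alone on the left and T2 over RANKL alone on the right, with 95% counting intervals, coloured where the interval leaves out 1. Secisbp2 lies right of 1 in both panels and Itgav, Itgb3 and Igf2r left of it, while Thra is grey in both and Slc16a10 coloured in T2 alone.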

How the data were processed

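Total RNA went into SMARTer libraries, per the labels' protocols, and genome builds GRCm38 and mm10 are named in the submitters' processing notes. Aligner, counter and use of strand were not given in the sources used here. Values deposited by the authors were FPKM per gene, and 0 per-sample columns were left unused. Multiplied by the deposited gene length, 100% of nonzero values came out as whole multiples of a library's step, with a tolerance of 0.01, and these multiples are the reads. The ratios of the inverse of these steps equal those of median-of-ratios size factors, so the deposited FPKM carry that scaling.

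Ratios of FPKM have exact conditional 95% intervals and levels exact Poisson ones. Log2 changes used a pseudocount of 1, which understates changes of low genes. The 9 genes and all lists (121 symbols, 1 matched by gene ID as its symbol was altered) were chosen with earlier results of these data known. Named were the 9, genes overlapping them, Acp5, Ctsk, the 3 genes nearest to Slc16a10, and from each list up to 4 measured genes with the largest log2 change against RANKL alone. Any other gene named was chosen after its values were seen. Some listed genes are counted but not reported here by name. Alternatives were other scalings, pseudocounts, filters, folds and interval levels. Gene coordinates and lengths of the 9 genes equal those of GENCODE M21, and copies were sought with BLAST+ 2.17.0. Promoters are from RefSeq (GRCm38.p6). Functions were tested on simulated reads. Python 3.11.15, numpy 2.4.6, pandas 2.3.3, scipy 1.17.1 and matplotlib 3.10.9 were used.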

Additional observations from a re-analysis of the deposited data

Results flagged for a closer look

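Slc3a2, the heavy chain gene of the LAT1 transporter, stood on opposite sides of RANKL alone in T1 and T2, at a ratio of 0.916 (95% counting interval 0.868 to 0.966) for T1 and 1.06 (1.01 to 1.11) for T2, each over RANKL alone. The ratio of T2 over T1 was 1.16 (1.097 to 1.22). Nfatc1, the osteoclast regulator among the markers, went the other way round, at 1.05 (1.03 to 1.07) for T1 and 0.961 (0.943 to 0.980) for T2. Both genes passed on counting error, the only error measured here, and the differences were not tested against replicates.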

How the results depend on the processing

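For the count of genes beyond counting error among the 9, rescaling libraries to the same total FPKM gave 1 in T1 against RANKL alone (0 as reported), 0 in T2 against RANKL alone (1 as reported) and 1 in T2 against T1 (0 as reported). With 99% intervals, and with depth as the sum of reads, a setting added after the data had been seen, the count in T2 against RANKL alone was 0. Median-of-ratios scaling gave the same counts, which it must, since the deposited values carry it. The count past 2-fold was 0 in each comparison with a pseudocount of 0.1 or 5, without a filter, with a filter at 5 FPKM, at a fold of 1.5 and with each scaling. Part of this was fixed beforehand. Without a filter the pseudocount stayed at 1, so genes at or near 0 FPKM could not reach 2-fold. With a pseudocount of 0.1 the limit of 1 FPKM stayed, and the filter at 5 FPKM keeps both Thra and Slc16a10. The 30 log2 changes of Thra and Slc16a10 recomputed under other pseudocounts and scalings stayed within the counting interval of the reported ratio. No library could be left out, since each group has 1, and T1 and T2 are not replicates. Depth limits Tshr, Tshb and Dio2, which had at most 3 reads per library. The scalings of other listed genes were also computed after the data had been seen, and the report gives the calls they changed for genes it names against RANKL alone, apart from Usp20 at 0.923 and Ucp2 at 0.966, which became lower in T1 at the same total FPKM, and Atp2a2, whose call in T2 was lost at 0.976 with depth as the sum of reads.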

Other observations

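Igf1, the gene of the IGF1 receptor's ligand, which macrophages can make, lay below the limit of 1 FPKM and was picked after its values had been seen. It had 15 reads in T1, 25 in T2 and 8 with RANKL alone, at 0.0903, 0.144 and 0.0501 FPKM. The ratio of T2 to RANKL alone was 2.88 (95% counting interval 1.26 to 7.38), and that of T1 was 1.80 (0.718 to 4.91). Slc10a1, a bile acid transporter gene that also carries thyroid hormone, had 1 read in T1, 9 in T2 and 6 with RANKL alone.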
